A study of Mus musculus with 11 samples.

Results

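Among the sorted stromal cells of mouse perigonadal white adipose tissue (pgWAT), 124 of 3261 cells (3.80%, exact 95% binomial interval 3.17 to 4.52%) had the transcripts of macrophages. Each cell was sequenced in full length without molecular identifiers (Smart-seq2), and levels are CPM, the reads of a gene scaled to a common total of reads over mouse genes in each library. Cells were chosen by measured values of 3 genes, as those with at least 50 CPM of C1qa, at least 20 CPM of Csf1r and under 20 CPM of Pdgfra, the receptor that marks adipose stem cells. The cells came from untreated adult male and female mice that carry Tg(Pdgfrb-eGFP), a reporter in which Pdgfrb sequences drive green fluorescent protein, crossed back to C57BL6/J. The 11 plates (4 male, 7 female) were sorted on the GFP reporter, the endothelial protein CD31 or DPP4, after cells with the leukocyte protein CD45 had been gated out, so macrophages were not a target of any sort. All but 3 of the macrophages lay on 1 plate of a male, mouse 1, and 1 plate of a female, mouse 5. With 1 mouse of each sex, no value below carries a p-value, and sex, mouse, plate and sort cannot be told apart. Intervals cover counting error alone, and reads from the same starting molecule are not independent.

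Macrophages are the phagocytes of adipose tissue, where they take up dying cells, lipid and iron. They depend on the growth factor receptor encoded by Csf1r and make C1q, the protein that opens the classical complement cascade and tags debris for uptake. Long-lived resident macrophages are known for Lyve1, Folr2, Timd4 and the mannose receptor Mrc1, monocytes that have newly arrived for Ccr2, and cells that present antigen for MHC class II and its chaperone Cd74.

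The genes for the 3 chains of C1q lie side by side on the minus strand of chromosome 4 (GRCm38), C1qb at chr4:136880129-136886187, C1qc at chr4:136889804-136893065 and C1qa at chr4:136895917-136898803. The 250 bases before the start of C1qb and C1qc are shown because these genes were among those highest over other cells, and those of H2-Aa and H2-Eb1 because both moved together from cell to cell. For C1qc the RefSeq start lies within the gene as GENCODE vM21 places it above, so part of its window is inside that gene model. The windows are RefSeq sequences of GRCm38.p6, written 5′ to 3′ on the strand of the gene, at chr4:136886201-136886450 (minus strand) for C1qb, chr4:136892915-136893164 (minus) for C1qc, chr17:34287824-34288073 (minus) for H2-Aa and chr17:34305617-34305866 (plus) for H2-Eb1. Capitals mark ACTTCCT, the other strand of AGGAAGT, in both C1q windows, and CTGATTGG in both H2 windows.
C1qb: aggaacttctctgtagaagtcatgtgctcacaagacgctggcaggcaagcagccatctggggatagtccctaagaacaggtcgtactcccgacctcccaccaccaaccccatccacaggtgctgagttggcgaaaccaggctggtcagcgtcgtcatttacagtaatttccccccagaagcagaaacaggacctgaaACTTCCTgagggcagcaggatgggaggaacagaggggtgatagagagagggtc
C1qc: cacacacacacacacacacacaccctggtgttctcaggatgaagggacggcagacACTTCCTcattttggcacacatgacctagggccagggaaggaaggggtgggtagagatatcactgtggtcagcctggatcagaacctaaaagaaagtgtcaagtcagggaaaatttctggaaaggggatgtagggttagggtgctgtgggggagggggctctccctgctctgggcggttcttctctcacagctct
H2-Aa: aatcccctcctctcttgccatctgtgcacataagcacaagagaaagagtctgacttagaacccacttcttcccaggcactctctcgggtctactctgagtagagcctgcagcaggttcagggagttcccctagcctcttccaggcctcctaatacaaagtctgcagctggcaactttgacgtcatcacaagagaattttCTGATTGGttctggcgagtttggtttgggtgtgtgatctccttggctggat
H2-Eb1: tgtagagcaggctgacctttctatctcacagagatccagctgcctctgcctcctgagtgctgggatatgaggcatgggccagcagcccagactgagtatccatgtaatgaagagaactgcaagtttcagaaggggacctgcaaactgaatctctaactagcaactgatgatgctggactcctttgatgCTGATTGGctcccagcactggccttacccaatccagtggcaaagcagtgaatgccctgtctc
AGGAAGT holds the core letters bound by PU.1, the factor encoded by Spi1, and CTGATTGG is the Y-box of class II promoters. Windows of the 250 bases before each start were searched for these letters on both strands. AGGAAGT stood in the windows of 10 of 16 genes with an entry among the 20 genes highest over other cells, which are given further on, or 10 of 19 windows, against 2525 of 32851 windows of all genes (7.69%). The 10 genes were C1qb, C1qc, Ccl6, F13a1, Fcna, Folr2, Lyz2, Mrc1, Pf4 and Retnla. CTGATTGG stood in 2 of 5 windows of MHC class II genes, those printed, against 1258 of 32851 (3.83%). A match gives letters in a window and no evidence of binding.

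The macrophages were concentrated on plates of different sorts. On plate 171, sorted as CD31pos from mouse 1, they were 63 of 268 cells (23.5%, interval 18.6 to 29.1%). On plate 843, sorted as PDGFRBpos from mouse 5, they were 58 of 253 cells (22.9%, interval 17.9 to 28.6%). Plate 172, the PDGFRBpos plate of mouse 1, held 3 of 344 cells (0.872%, interval 0.180 to 2.53%), and on the other 8 plates there were none, which allows shares of up to 0.792 to 1.49% of a plate. The shares on plates 171 and 843 were each above the upper bound of every other plate, while their own intervals overlapped.

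**Figure D1:**
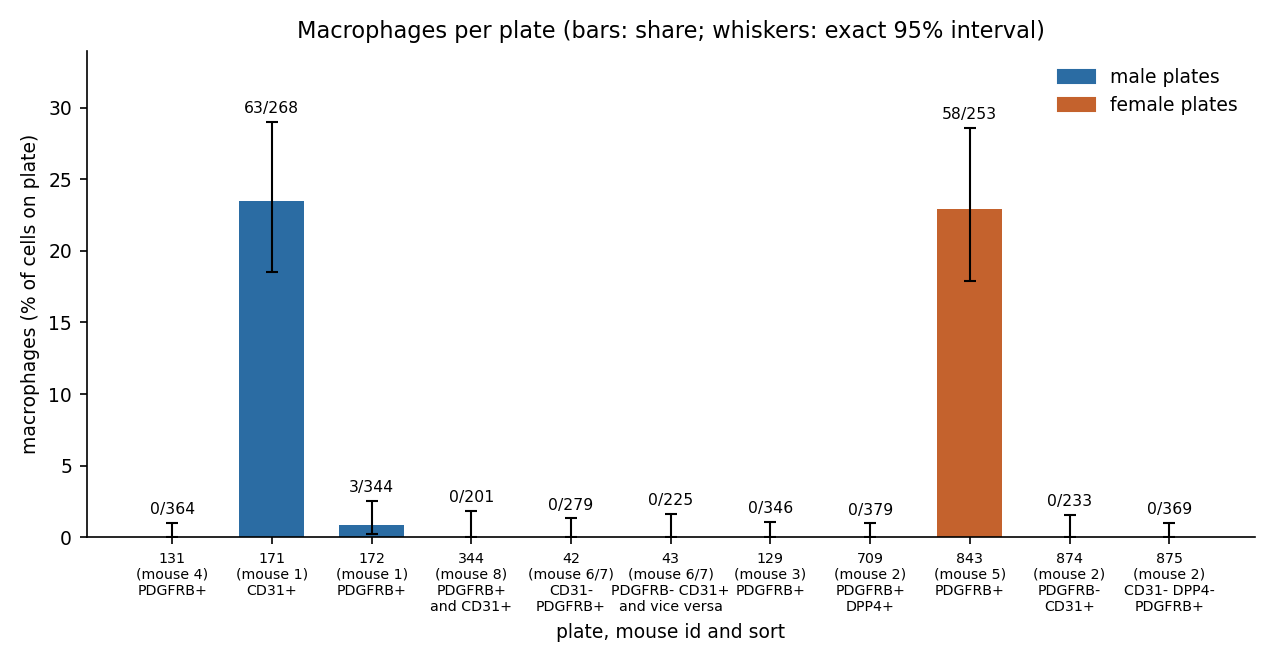
Share of cells taken as macrophages on each of the 11 plates (y axis, percent of cells). Bars are the shares of plates and whiskers exact 95% binomial intervals. Plates 171 and 843 stood at 23.5 and 22.9%, and the other 9 were at or below 0.872%.

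Transcripts of the proteins used for sorting were low in the macrophages of plates 171 and 843. Over the macrophages of plate 843, Pdgfrb summed to 0.148 CPM, against 67.9 CPM in the adipose stem cells (ASCs) of that plate. Endothelial cells (ECs) of plate 843 were also low in Pdgfrb, at 0.0814 CPM. The 3 macrophages of plate 172 summed to 170 CPM of Pdgfrb, against 193 CPM in its ASCs. Over the macrophages of plate 171, Pecam1, which encodes CD31, summed to 11.3 CPM, against 478 CPM in its ECs. Ptprc, which encodes CD45, was instead present at 133 CPM on plate 171 and 148 CPM on plate 843, against 3.67 and 0.407 CPM in ECs of the same plates. After every library was thinned to 100000 reads, 71.2% of macrophages of mouse 1 (interval 58.8 to 81.7%) and 84.5% of those of mouse 5 (72.6 to 92.7%) had a Ptprc read, against 12.4 and 5.88% of ECs. The macrophages thus held CD45 transcript although the sort was set against the protein, and how they passed it was not tested.

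The values that chose the cells reached close to the limits. C1qa was lowest at 59.9, 67.3 and 69.9 CPM, with a median of 2088 and a highest value of 6442 CPM. Cells that failed by C1qa alone numbered 29, the nearest at 45.4, 41.9 and 40.3 CPM. Csf1r was lowest at 23.97, 24.46 and 29.99 CPM, with a median of 913 CPM, and 12 cells failed by it alone, the nearest at 18.0, 14.9 and 12.4 CPM. Pdgfra reached at most 3.93 CPM in a macrophage and turned away no cell. Of the 124 cells, 5 had under 200 CPM of C1qa, all of mouse 1, and 13 had at least 20 CPM of the endothelial gene Cdh5 (2 cells) or 50 CPM of the stromal gene Dcn (11 cells). The 3 cells of plate 172 were unlike one another. In turn they had C1qa at 579, 411 and 88.4 CPM, Cd74 at 33.4, 10910 and 595 CPM, Ptprc at 0, 35.1 and 0 CPM and Dcn at 36.4, 37.4 and 4779 CPM. None of the 3 had a read of Retnla, and the last of them was the macrophage with the most Dcn.

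Libraries of macrophages held 163543 to 1674565 reads (median 892600) in mouse 1 and 165971 to 976412 reads (median 579919) in mouse 5, with a median of 4801 and 5483 genes with a read. A pair of rows for ribosomal-RNA-like genes took a median of 62.9 and 53.6% of reads, which lowers the CPM of every other gene. Other cells of the same mice served as the background, 121 ECs (Pecam1 and Cdh5) and 200 ASCs (Pdgfra) in mouse 1, and 51 ECs and 90 ASCs in mouse 5. Macrophage transcripts were read at low levels in these cells too, most on the plates that held macrophages. Lyz2 summed to 24.1 CPM in ECs of plate 171 and 4.76 CPM in those of plate 843, against 0.145 CPM on plate 172 and 0 to 0.883 CPM on the other plates, and the source of these reads was not tested.

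The label of macrophage was borne out by genes that the rule did not use. Lyz2, lysozyme, ran from 61.2 through a median of 2583 to 7566 CPM over cells of mouse 1, and from 90.0 through 5379 to 21840 CPM over cells of mouse 5. C1qb ran from 24.0 through 1652 to 3817 CPM and from 194 through 3443 to 7099 CPM. Every macrophage had reads of both, and the higher medians lay in mouse 5. Adgre1, which encodes F4/80, had medians of 123 and 292 CPM and was read in 118 of 124 cells. Cd68, of the endosomal membrane, had medians of 243 and 394 CPM and was read in 123. Summed over 15 macrophage markers, which include both C1qa and Csf1r of the rule, levels were 15130 CPM in mouse 1 and 24420 CPM in mouse 5, against 140 and 29.8 CPM in ECs and 21.5 and 23.1 CPM in ASCs.

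The size of these gaps is given as the smallest of 4 log2 ratios of (CPM + 1), macrophages over ECs and over ASCs in each mouse. Of 6842 genes with at least 10 CPM in the macrophages of either mouse, 462 (6.75%) were at least 4-fold higher in all 4 comparisons, and the median gene stood at a smallest log2 ratio of −0.55. Among the macrophage markers 14 of 15 passed, with a median of 6.77. Mertk, a receptor for the uptake of dying cells, did not, at 83.1 and 28.9 CPM against 31.1 and 8.504 CPM in ECs. As C1qa and Csf1r chose the cells, these counts describe the cells and test nothing.

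The 20 genes with the largest smallest ratio, from 6.97 to 8.05 on the log2 scale, fell into a few functions. C1qa (8.05), C1qb (7.89) and C1qc (7.82) encode C1q, and Fcna (7.74) encodes a ficolin that opens the lectin branch of complement. Retnla (8.01), Folr2 (7.77), Cbr2 (7.80), F13a1 (7.56) and Mrc1 (7.20) are known from resident or alternatively activated macrophages. Cd209f (7.59), Cd209g (7.11) and Siglec1 (7.07) encode lectins, and reads of the Cd209 genes may be split between near-identical copies. Fcgr2b (7.35) and Fcgr3 (6.97) encode receptors for antibody, and Tyrobp (7.06) encodes a signalling adaptor. Ccl6 (7.29) and Pf4 (7.19) are chemokines, and Lyz2 (7.35), Csf1r (7.27) and Pld4 (7.16) completed the set. C1qa and Csf1r chose the macrophages, and C1qa was also limited in ECs and ASCs, so the places of both were partly set in advance. Over 7 other settings the lowest ratio of any of these 20 genes was 6.65.

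Genes of tissue-resident macrophages were high in both mice. In this list 10 of 12 genes were past 4-fold over both other kinds of cell (median 6.96), and their summed level was 9983 and 11810 CPM. Folr2, a folate receptor, ran from 0 through 854 to 2578 CPM in mouse 1 and from 0 through 1174 to 4164 CPM in mouse 5. After thinning, 93.9 and 96.6% of macrophages had a Folr2 read, against 34.7 and 5.88% of ECs. Cd163, the haemoglobin scavenger receptor, had medians of 91.9 and 311 CPM, and Timd4, which binds phosphatidylserine on dying cells, had medians of 0.948 and 5.39 CPM. Timd4 was thus unevenly held, with 26 cells of each mouse at 20 CPM or more. Lyve1, a hyaluronan receptor, had medians of 243 and 605 CPM but missed the 4-fold limit, as ECs of mouse 1, which include lymphatic cells that make Lyve1 themselves, summed to 111 CPM. Gas6, a bridge between dying cells and the receptor encoded by Mertk, also missed it, at 284 and 640 CPM against 148 and 234 CPM in ASCs.

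Most markers of incoming monocytes and of dendritic cells were near 0, and those at 10 CPM or more, Ccr2, Cx3cr1 and Cd209a, were past 4-fold (2 of 2 tested and 1 of 1). Ccr2 summed to 10.3 and 105 CPM and Cx3cr1 to 44.0 and 176 CPM. Among monocyte genes, Ly6c2, Plac8, Ace and Itgal summed to at most 4.88 CPM in either mouse. Ccr2 was at 20 CPM or more in 8 of 66 and 9 of 58 cells, and Cx3cr1, the fractalkine receptor, in 4 and 9 cells. Only 3 cells of mouse 1 and 0 of mouse 5 had both Ccr2 and Timd4 at 20 CPM. Among 6 dendritic cell genes, Itgax, Clec9a, Ccr7 and Itgae summed to at most 0.124 CPM, Zbtb46 to 1.61 and 5.17 CPM, and Cd209a, which monocyte-derived dendritic cells and some macrophages make, to 84.8 and 118 CPM. Genes named for lipid-associated macrophages were split. Trem2, Lipa and Apoe were past 4-fold, 3 of 12 genes, against 6.75% of all genes tested. The list's median was −1.21, against −0.55 for all genes. Fabp4, Fabp5 and Cd36 were higher in ECs, and Lpl, Cd9 and Gpnmb in ASCs. Cd9 summed to 3.85 and 11.7 CPM, Spp1 to 0.212 and 14.98 CPM, and the Gpnmb reads of mouse 1 came to 91.7% from a single cell.

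**Figure D2:**
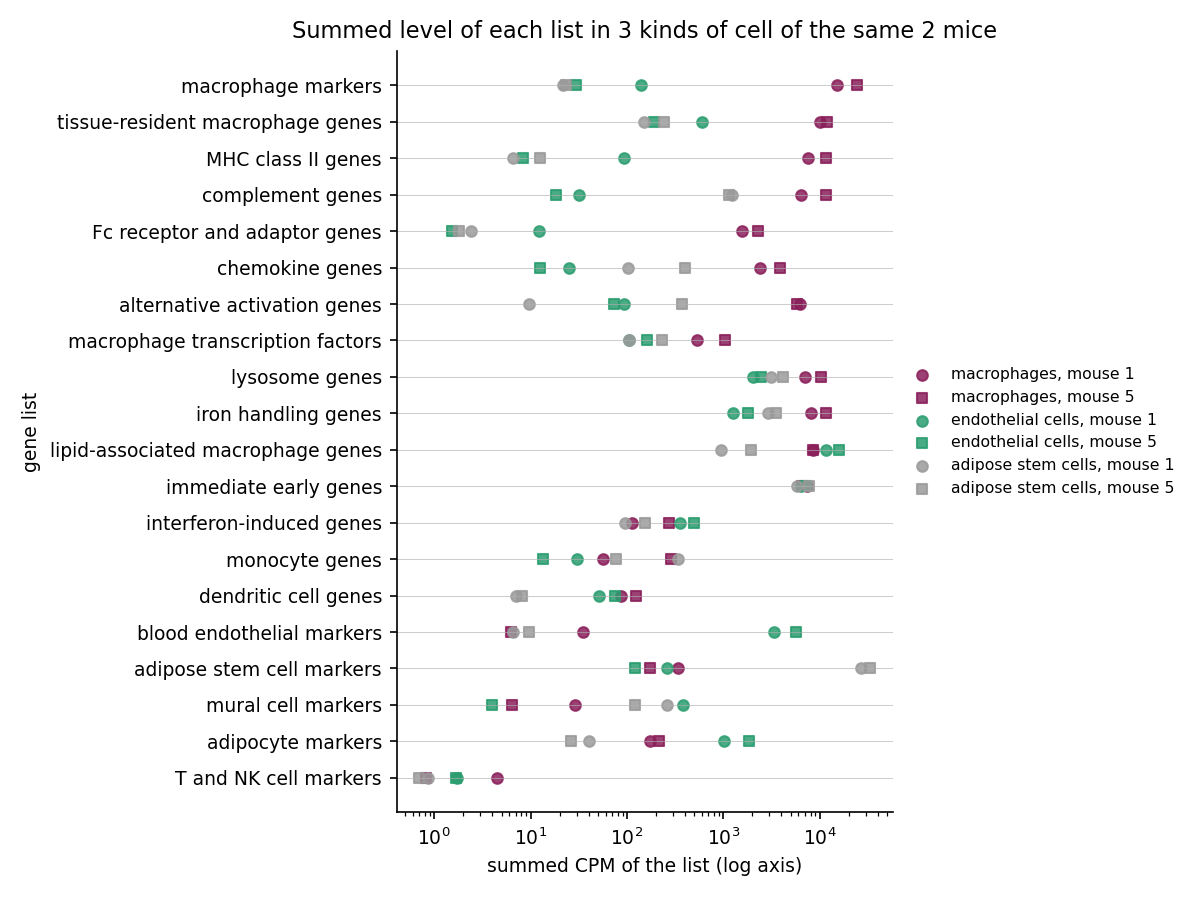
Summed CPM of each gene list (x axis, log scale) in macrophages, endothelial cells and adipose stem cells of mouse 1 (circles) and mouse 5 (squares); no error bars, as each point is 1 mouse. Macrophage markers stood at 15130 and 24420 CPM in macrophages and at no more than 140 CPM in the other cells, whereas the lipid-associated list was higher in endothelial cells.

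Most of the listed complement, Fc receptor and chemokine genes were past 4-fold over other cells. Of the complement genes 7 of 9 were past 4-fold, among them the receptors C3ar1 and C5ar1, the integrin chain Itgam and properdin, Cfp. Cfp ran from 0 through 302 to 1432 CPM in mouse 1 and from 8.18 through 832 to 3837 CPM in mouse 5. C3 itself, the central component, was at 13.5 and 6.21 CPM in macrophages and at 1130 and 998 CPM in ASCs. All 6 tested Fc receptor and adaptor genes passed. Of 14 chemokine genes 11 passed, and for several the highest cell was far above the median. Ccl8 ran from 0 through 16.1 to 2665 CPM and from 0 through 46.9 to 5844 CPM, and Ccl3 from 0 through 0.708 to 1411 CPM and from 0 through 0 to 656 CPM. Ccl6 and Ccl9 were more evenly held, with medians of 326 and 678 CPM for Ccl6 and of 243 and 619 CPM for Ccl9.

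Cytokine and growth factor genes were mostly low. Il10, an anti-inflammatory cytokine, was past 4-fold at 7.83 and 28.9 CPM, as were Osm at 9.95 and 18.0 CPM and Tgfb1 at 50.4 and 11.5 CPM, 3 of 6 tested genes. Tnf was at 19.6 and 37.9 CPM, with 16.4 CPM in ECs of mouse 1, and did not pass. Il1b summed to 2.74 and 0.414 CPM and Il6 to 0 and 0.473 CPM. Bmp2 was the growth factor gene past 4-fold, 1 of 4 tested, at 22.4 and 7.15 CPM, and Gas6, given above, was the highest by its sum. Igf1, a growth factor, was at 135 and 136 CPM in macrophages and at 163 and 42.2 CPM in ASCs, and did not pass. Platelet-derived growth factor genes, whose receptors mark the stromal cells of these sorts, were low, with Pdgfb at 2.03 and 4.70 CPM and Pdgfc at 14.8 and 32.7 CPM.

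In iron handling, 5 of 10 genes passed, Cd163, Hmox1 (haem oxygenase), Slc40a1 (the iron exporter ferroportin), Slc11a1 and Tfrc. Slc40a1 had medians of 0.935 and 1.42 CPM with highest cells at 594 and 1105 CPM. The ferritin genes Fth1 and Ftl1 were high in every cell, with Ftl1 at no less than 123 and 70.9 CPM, and did not pass because the other cells hold them too. Lysosome genes behaved alike. Ctss, Cd68 and Grn passed, 3 of 11, while Ctsb was at 1634 and 3222 CPM in macrophages and at 287 and 940 CPM in ASCs. Among transcription factor genes Spi1 (PU.1), Maf and Irf8 passed, with Spi1 read in 116 of 124 cells. Immediate early genes, known to rise when tissue is digested, gave 0 of 11 and interferon-induced genes 0 of 5. Of the alternative activation genes 4 of 5 passed, Retnla, Mrc1, Clec10a and Mgl2, and Arg1 summed to 0.582 and 1.01 CPM.

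Markers of other cell types were low but not always at 0. Blood endothelial markers summed to 35.0 CPM in macrophages of mouse 1 and 6.27 CPM in mouse 5, against 3359 and 5705 CPM in ECs. ASC markers summed to 337 and 175 CPM, against 26870 and 33250 CPM in ASCs. Mural markers came to 29.0 and 6.44 CPM, T and NK markers to 4.48 and 0.828 CPM, and adipocyte markers to 172 and 214 CPM. Of the genes tested, 1 blood endothelial, 4 ASC and 7 adipocyte markers, none was past 4-fold. No mural or T and NK marker reached the 10 CPM needed for that comparison. B cell markers had 1 of 2 tested, Ighm, and mast cell and granulocyte markers 1 of 1, Csf3r.

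The macrophages varied among themselves in MHC class II and in Retnla. All 7 class II genes were past 4-fold over other cells (median 6.12). Cd74 ran from 4.41 through 1539 to 13520 CPM in mouse 1 and from 5.52 through 1576 to 19230 CPM in mouse 5. H2-Aa, a chain of the class II molecule itself, ran from 0 through 429 to 6517 CPM and from 2.90 through 519 to 9750 CPM. At 500 CPM or more of Cd74 stood 43 of 66 and 42 of 58 cells, and at 5000 CPM or more 24 and 20 cells, so both mice held the whole range.

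**Figure D3:**
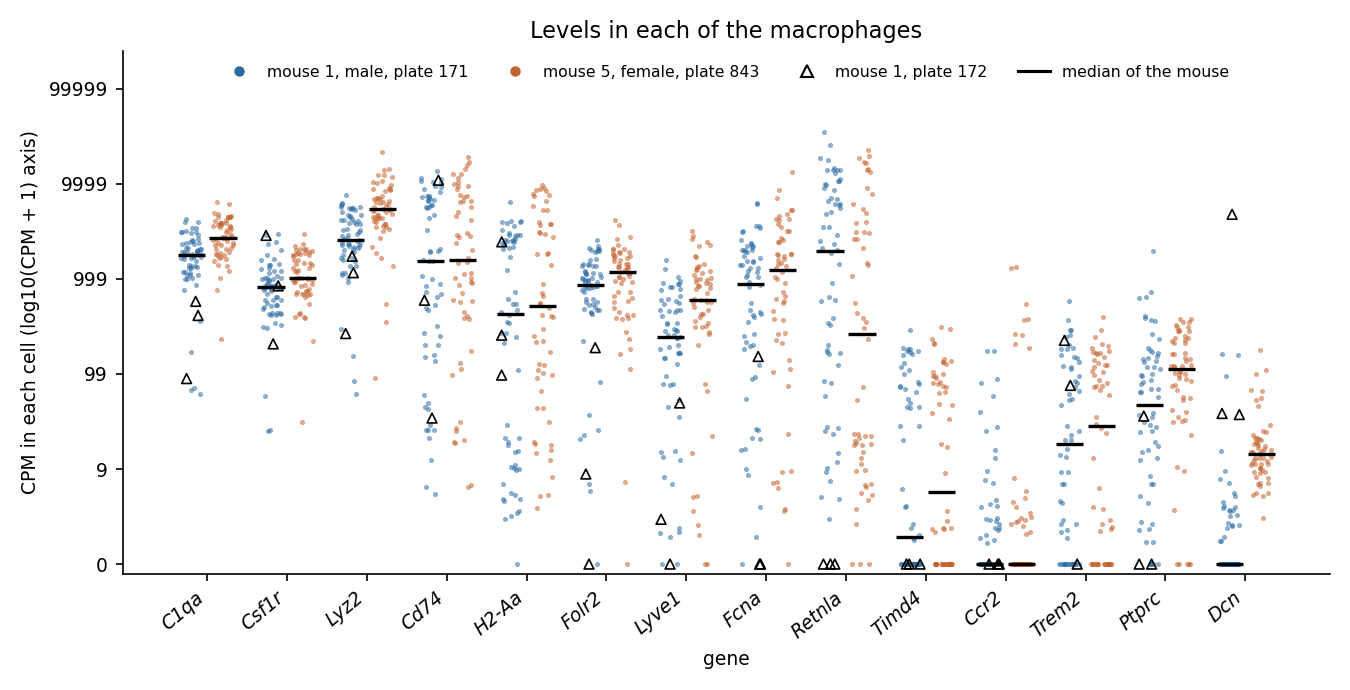
CPM of each gene in each macrophage (y axis, log10(CPM + 1) scale); points are cells of mouse 1 and mouse 5, triangles the 3 cells of plate 172 and lines the median of each mouse. Cd74 spans 4.41 to 19230 CPM and Retnla 0 to 35220 CPM; the lower end of C1qa and Csf1r is set by the rule.

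Class II genes moved as a block from cell to cell. The rank correlation of Cd74 with H2-Aa was 0.93 over the 66 cells of mouse 1 and 0.95 over the 58 of mouse 5, and that of H2-Aa with H2-Eb1 was 0.90 and 0.96. Ciita, which encodes the master regulator of class II genes, was read in 36 of 124 cells, and its correlation with H2-Ab1 was 0.28 and 0.63. Such correlations describe cells that share a mouse, a plate and a range of depths. A class II score, the mean of log2(CPM + 1) over the 7 genes, had a correlation with total reads of 0.08 and 0.24. C1qa, which encodes a secreted protein unrelated to presentation, was not ranked with Cd74, at 0.09 and −0.03.

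Some pairs of resident genes also ranked together. Lyve1 had a correlation with Folr2 of 0.60 and 0.64 and with Fcna of 0.61 and 0.75, and Folr2 with Cbr2 of 0.60 and 0.71. The mean of resident genes had a correlation with total reads of 0.59 in mouse 1 and 0.06 in mouse 5, so that in mouse 1 depth moved with it, and the part of depth was not tested. Against the class II score, Fcna stood at −0.40 and −0.50, Lyve1 at −0.21 and −0.46, and F13a1 at −0.16 and −0.49. Folr2 stood at 0.03 and −0.21 and Pf4 at 0.21 and 0.17, so the resident genes were not ranked against class II as a group, and the mean over the list stood at −0.21 and −0.32. Trem2 against Cd74 stood at −0.29 and −0.45, Ccr2 at 0.40 and 0.26 and Mgl2, a lectin of antigen-presenting cells, at 0.33 and 0.46.

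**Figure D4:**
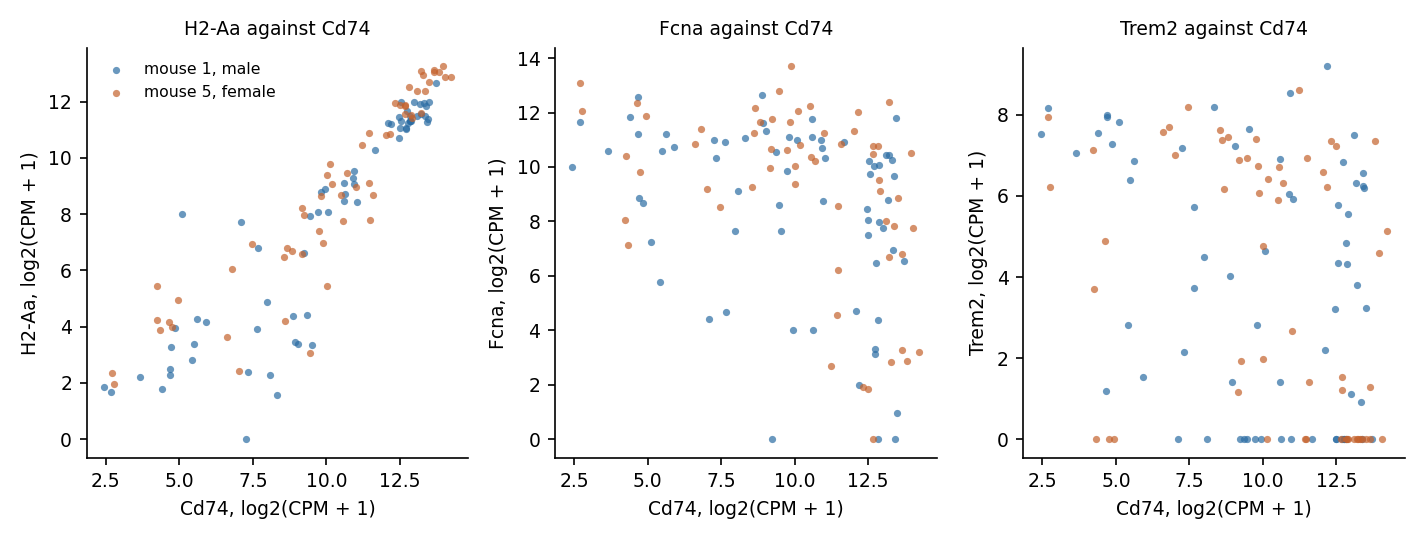
H2-Aa, Fcna and Trem2 against Cd74 in each macrophage (all axes log2(CPM + 1); points are cells, coloured by mouse). H2-Aa rises with Cd74 along a narrow band (rank correlation 0.93 and 0.95), and Fcna and Trem2 scatter widely with a downward tilt.

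Over 5266 genes read in at least 30% of macrophages of each mouse, the median rank correlation with the mean log2 level of Cd74, H2-Aa, H2-Ab1 and H2-Eb1 was −0.01 in mouse 1 and 0.00 in mouse 5. At 0.4 or more in both mice stood 7 genes, counting these 4, and at −0.4 or less 1 gene, Fcna (−0.40 and −0.52). The others were H2-DMa (0.73 and 0.73) and H2-DMb1 (0.64 and 0.58), which load peptide onto class II, and Plbd1 (0.40 and 0.54). Next came Clec7a, the receptor for fungal glucans, at 0.33 and 0.37. On the opposite side were Ly6e (−0.42 and −0.35), C4a (−0.40 and −0.29), Ninj1 (−0.30 and −0.36) and Cyb5a (−0.34 and −0.31). These genes were chosen after their values were seen.

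Retnla, which encodes the secreted protein RELMα, had the highest single value of any gene named here. It ran from 0 through 1947 to 35220 CPM in mouse 1 and from 0 through 267 to 22870 CPM in mouse 5. At 5000 CPM or more stood 25 and 12 cells, and at 50 CPM or more 51 of 66 and 32 of 58. In each mouse the cells thus covered the whole span from no reads to over 5000 CPM. Its rank correlation was 0.45 and 0.49 with Fcna and 0.10 and −0.09 with Cd74. Cell cycle genes were seldom read, and at least 3 of 8 of them reached 10 CPM in 0 cells of mouse 1 and 4 cells of mouse 5.

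The remaining comparison sets the macrophages of the female mouse 5 beside those of the male mouse 1. Reads were summed per mouse, scaled by the trimmed mean of M values (TMM) to a scaled CPM, and a gene was counted when it had over 600 reads in both sums and differed by more than 2.6-fold. Of 3592 such genes, 87 (2.42%) were higher in mouse 5 and 156 (4.34%) in mouse 1, and the median gene was shifted by 0.16 on the log2 scale. With library totals in place of TMM the split turned to 289 and 66 genes and the median shift was 0.51. As each side is 1 mouse, the counts compare these libraries and not the sexes. The sex labels fitted the transcripts of the X and Y chromosomes. Xist, the transcript of the inactive X, whose reads overlap its antisense gene Tsix, was at 0.481 scaled CPM in mouse 1 and 366 scaled CPM in mouse 5, and Ddx3y of the Y chromosome at 8.73 (interval 7.93 to 9.59) and 0.0781 (0.0161 to 0.228).

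Of the 15 macrophage markers 2 passed 2.6-fold, Fcgr1 higher in mouse 5 and Mertk higher in mouse 1. The log2 difference, mouse 5 minus mouse 1, was 0.27 for C1qa, −0.06 for Csf1r, 0.58 for Lyz2 and −0.08 for Cd74. None of the 7 class II genes passed 2.6-fold in either direction (median 0.46). Of 113 listed genes with enough reads 16 passed, 5 of them higher in mouse 5. Hmox1, the haem-degrading enzyme, was at 155 scaled CPM (interval 152 to 159) in mouse 1 and 509 (502 to 517) in mouse 5, a log2 difference of 1.71. Its per-cell medians were 67.7 and 385 CPM, and the cells of the mice overlapped between 0 and 565 CPM. Hmox1 also differed in ECs of the same mice, by 1.83, but by −0.58 in ASCs.

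Mgl2 was at 190 (186 to 194) and 549 (542 to 557) scaled CPM, a log2 difference of 1.53, against −0.47 in ECs and 0.33 in ASCs. Fcgr1, the high-affinity antibody receptor, was at 32.2 and 91.3 scaled CPM (1.48), with reads in 26 of 66 and 44 of 58 cells. Il4ra, the receptor chain for interleukin 4, was at 33.7 and 150 scaled CPM (2.12), and it also differed by 4.58 in ASCs. Cx3cr1 was at 49.9 and 155 scaled CPM (1.62), but 41.1 and 38.3% of its reads came from 1 cell in each mouse. Ccr2, with too few reads in mouse 1 to be counted, was at 11.7 and 92.6 scaled CPM, and 35.8% of its reads in mouse 5 came from 1 cell.

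Higher in mouse 1 were 11 of the 16. Stab1, a scavenger receptor, was at 2806 (2791 to 2821) scaled CPM in mouse 1 and 780 (771 to 789) in mouse 5, a log2 difference of −1.85, and it differed by −2.58 in ECs. Mertk was at 94.2 and 25.5 scaled CPM (−1.85), and it differed by −2.10 in ECs and −1.92 in ASCs. The per-cell medians of Mertk went the other way, at 3.01 CPM in mouse 1 and 10.2 CPM in mouse 5. In mouse 1, 1 cell gave 23.7% of its reads. Cd36, a fatty acid carrier, was at 2198 and 647 scaled CPM (−1.76), and Fabp4, a fatty acid binding protein, at 104.9 and 29.7 (−1.79). For both, ECs hold more, at 4287 and 6783 CPM of Fabp4 in mouse 1 and mouse 5, and Fabp4 reads were found in 66 of 66 and 53 of 58 macrophages. The part of reads from ECs of the plate was not tested. Ccl24, an eosinophil chemokine, was at 272 and 104 scaled CPM (−1.38), and Tfrc, the transferrin receptor, at 91.0 and 30.1 (−1.57). By per-cell medians Tfrc was instead higher in mouse 5, at 15.9 CPM against 7.02 CPM in mouse 1.

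Of 11 immediate early genes 4 were among these, Nr4a1 (−2.27), Jund (−1.72), Egr1 (−1.62) and Zfp36 (−1.40). Egr1 was lower in mouse 5 in ECs (−1.47) and ASCs (−1.13) too, whereas Nr4a1 differed by 0.14 in ECs. Fos went the other way by its sums, 850 and 2152 CPM, and did not pass. Dcn, the stromal proteoglycan, was the remaining gene (−1.65), and 84.7% of its reads in mouse 1 came from the cell of plate 172 described above. Without the 3 cells of that plate the difference was 0.97. Over the 16 genes, 4 passed 2.6-fold the same way in ECs and 6 had the opposite sign there.

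**Figure D5:**
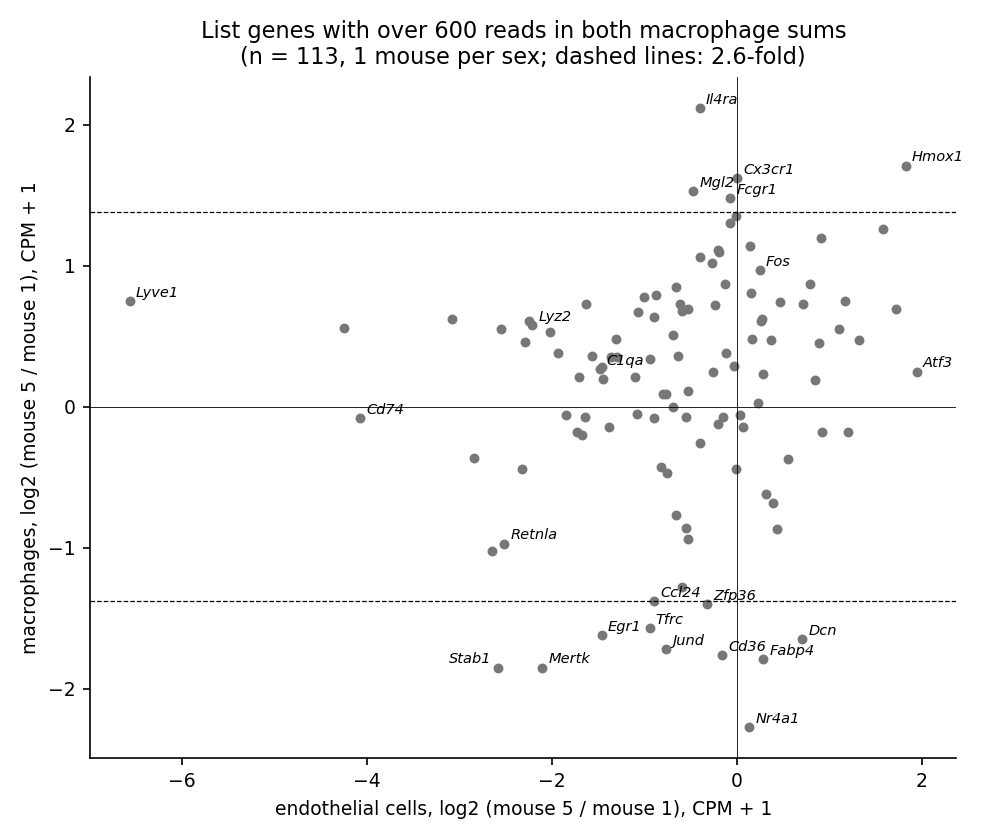
Difference between mouse 5 and mouse 1 (log2 of scaled CPM) in macrophages (y axis) against that in endothelial cells (x axis) for 113 listed genes; dashed lines mark 2.6-fold. Of 16 genes past the lines, 4 passed 2.6-fold the same way in endothelial cells, among them Stab1 and Hmox1.

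Among all genes, the 10 furthest apart in each direction with at least 20 scaled CPM in the higher mouse included genes with few reads in the lower mouse. Higher in mouse 5, after Xist, were Tor1b (4.61), Alg13 (4.36), Snupn (4.18), Cbx5 (4.01), Ccnd1 (3.98), Olfml3 (3.97), Imp3 (3.84), Pak1 (3.49) and Sac3d1 (3.43). Alg13, of protein glycosylation, was at 5.83 and 139 scaled CPM with reads in 64 of 66 and 58 of 58 cells, and it differed by 3.51 in ECs and 4.03 in ASCs too. Snupn differed by 2.96 in ECs and Imp3 by 2.75. Ccnd1, cyclin D1, differed the other way in ECs, by −1.88, and so did Cbx5, a heterochromatin protein, by −4.12. In mouse 5, 1 cell gave 45.45% of the reads of Sac3d1, 38.6% of Olfml3 and 25.5% of Pak1. Higher in mouse 1 were Gpnmb (−5.48), Sema6a (−4.81), Hspg2 (−4.78), Gm8141 (−4.53), Tmem241 (−4.34), Gm47542 (−4.29), Cdc42ep1 (−4.25), Mmp2 (−4.14), Lrp5 (−4.09) and Sh3tc2, which had 0 reads in mouse 5. Single cells of mouse 1 gave 91.7% of the reads of Gpnmb, 70.1% of Hspg2, 86.2% of Mmp2, 99.03% of Sh3tc2 and 46.9% of Tmem241. The gene models Gm8141 and Gm47542 were instead read in 65 and 66 of 66 cells of mouse 1, and they differed by −5.18 and −3.49 in ECs and by −3.34 and −3.14 in ASCs as well. Gm8141 had 10 reads in mouse 5 and Gm47542 had 154. Several genes higher in mouse 1 were higher still in its other cells. In ECs, Sema6a was at 119 CPM (26.4 in macrophages), Cdc42ep1 at 542 (23.3), Lrp5 at 210 (36.1) and Hspg2 at 608 (34.1). In ASCs, Mmp2 was at 1567 CPM (32.0 in macrophages). Tmem241 and Sh3tc2 were highest in macrophages. On plates 171 and 843 alone, Hspg2 moved to −3.12 and Mmp2 to −1.48, and the others stayed at −4.14 (Lrp5) or further. The part of reads from other cells was not tested.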

How the data were processed

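Single cells of pgWAT were sorted into plates and sequenced by Smart-seq2. The authors demultiplexed with bcl2fastq, aligned with STAR to mm10 with spike-in sequences, quantified with Salmon and tximport, and filtered cells by depth, genes, mitochondrial and spike-in reads and mixed identity; versions and strandedness are not given in the sources used here. The deposited table holds read counts per gene and cell, whole numbers that were not normalized. The mouse genes gave 23507 rows, of which 23432 were matched to a symbol.

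CPM was taken over mouse genes without spike-ins. Cells and lists were chosen with earlier results of these data known. ECs had Pecam1 of at least 50 and Cdh5 of at least 20 CPM with C1qa and Pdgfra under 20, and ASCs Pdgfra of at least 20 with C1qa and Cdh5 under 20. Counts were summed per mouse and scaled with edgeR 4.0.16 (TMM) in R 4.3.3; other steps used Python 3.11.15, pandas 2.3.3, scipy 1.17.1, numpy 2.4.6 and matplotlib 3.10.9. The planned quasi-likelihood test and DESeq2 could not be fitted, since 1 mouse of each sex leaves no residual degrees of freedom, so size limits of 4-fold (pseudocount 1 CPM) and 2.6-fold were used. Genes named were those of the lists, the 20 with the largest smallest ratio over other cells (at least 100 CPM), and the 10 furthest apart in each direction between mice with at least 20 scaled CPM. The scripts were tested on simulated data. Intervals are exact (Clopper-Pearson or Poisson) at 95%, and limits for 0 cells use 3 counts. Thinning left out 0 cells. Alternatives covered the rule's limits, scaling, filters, pseudocount, mixed cells and plates. Chil3, Flt3, Xcr1, Cd3e, Cd3g, Trbc2, Nkg7, Klrb1c, Ms4a1, S100a8, S100a9 and Siglecf were not analysed here, and some other listed genes are not reported here.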

Additional observations from a re-analysis of the deposited data

Results flagged for a closer look

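The share of macrophages on plate 171, 23.5%, stood apart from the other male plates, with a gap to the nearest of 0.963 of the range of the 4 plates (critical value 0.829). The share on plate 843, 22.9%, stood apart from the other female plates, with a gap of 1.0 of the range of the 7 plates (critical value 0.568). The other female plates were all at 0, so any share above 0 would give that gap. The usual rate of such gaps by chance, about 1 in 20 groups, does not hold for shares that are mostly 0, and both plates were known to hold these cells when the rule was set. The plates differ in sort and in mouse, and the part of either was not tested.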

How the results depend on the processing

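No paired analysis was possible because replicate numbers were given in accession order and members came from 1 mouse of each sex. Leaving out a mouse or keeping PDGFRBpos plates alone left no comparison, and edgeR's and DESeq2's tests could not be fitted. A looser rule (C1qa at least 20 and Csf1r at least 10 CPM) raised the share on plate 171 to 32.8% and that over all plates to 4.69%. The 87 genes higher in mouse 5 became 289 with library totals, 1103 with at least 10 counts in both sums and 1397 with no filter beyond 1 count, and the 156 higher in mouse 1 became 66, 1074 and 1403. Under the other settings they ran from 63 to 127 and from 132 to 161. Dcn reversed to 0.83 under the stricter rule, 2.11 without mixed cells, 0.97 on plates 171 and 843 alone and 0.82 without cells under 200 CPM of C1qa; the last pair and totals without the ribosomal-RNA-like rows were chosen after seeing the data. Among 36 named genes and 288 gene and setting pairs, 268 kept direction and side of the limit, 16 lost the limit and 4 reversed. Gpnmb dropped to −0.12 and Sh3tc2 to −0.28 under the stricter rule, and Fabp4 to −1.37 without low-C1qa cells. Genes past 4-fold over other cells ran from 452 to 550, against 462.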

Other observations

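Clock genes were looked up after their values were seen. Ciart, a repressor within the circadian clock, summed to 133 and 13.3 CPM in macrophages of mouse 1 and mouse 5, against 0.596 and 0 CPM in ECs and 0.796 and 0.837 CPM in ASCs. Ciart was read in 39 and 12 macrophages of mouse 1 and mouse 5, and 20.8 and 29.7% of its reads came from 1 cell in each. The other clock genes looked at did not share this gap over other cells. Between the mice, the sums of Nr1d1, Per1, Per2 and Dbp were lower in mouse 5 in macrophages, ECs and ASCs alike. However, 1 cell gave 98.7% of the Per2 reads in macrophages of mouse 1. The per-cell median of Per1 in macrophages was higher in mouse 5, at 9.95 CPM against 5.83 CPM in mouse 1. Nr1d2, Arntl, Clock and Cry1 were not lower in every kind of cell. Nr1d1, which encodes the clock repressor REV-ERBα, summed to 281 and 54.1 CPM in macrophages, against 746 and 281 CPM in ECs and 387 and 101 CPM in ASCs. Per1 was at 195 and 90.2 CPM, against 124 and 77.6 CPM in ECs, and Dbp at 26.1 and 10.2 CPM, against 47.1 and 32.2 CPM in ECs. The hour at which each mouse was taken is not used here.

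Ighm, the heavy chain gene of IgM, was read in 120 of 124 macrophages, with medians of 140 and 379 CPM. Of the other B cell genes, Cd79a was near 0 at 0.0529 and 0 CPM, Igkc at 0.212 and 0.0591 CPM and Jchain at 0.0706 and 0.857 CPM. Cd79b instead reached the 10 CPM needed for the comparison with other cells, and it did not pass 4-fold. Beside the macrophages, 14 further cells of plate 171 and 3 of plate 843 had at least 20 CPM of Ptprc, and 0 cells of the other plates did.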
